A study of Homo sapiens with 8 samples.

Results

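Rosiglitazone alone was set against the control treatment in 4 of the study's 8 arrays, chosen by their titles: 2 arrays of rosiglitazone-treated cells and 2 of control-treated cells. All 8 came from a non-small cell lung cancer (NSCLC) adenocarcinoma cell line that the labels do not name, kept overnight in DMEM with 10% FBS and antibiotics before the medium was changed. The control medium held no drug (the design text calls this group DMSO/control), the rosiglitazone medium held 1 µM of the drug, and RNA was taken after 24 h. The other 4 arrays were 2 with carboplatin at 10 µM and 2 with carboplatin plus rosiglitazone. They shared one estimate of the spread with the first 4 and are used at the end for a further reading of the drug. The doses inside the combination are not repeated in the labels. Whether duplicate arrays stand for separate cultures is not recorded, so a p-value here reflects the scatter among arrays alone, possibly technical, and having 2 arrays per group limits the precision throughout.

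Rosiglitazone is a thiazolidinedione, a synthetic ligand of the nuclear receptor PPARγ. PPARγ binds DNA as a heterodimer with the retinoid X receptor, at direct repeats of a short hexamer, and ligand binding exchanges corepressors for coactivators. In fat cells it drives the uptake and storage of fatty acids, and many of its targets are shared with PPARα and PPARδ, so that enzymes of fatty acid oxidation also respond to PPAR ligands in various cell types. In lung carcinoma lines PPARγ ligands have been reported to slow growth and to favour differentiation.

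Expression was read on Affymetrix arrays, on which a gene is covered by 1 or more probe sets. Levels below are quantile normalized log2(signal + 16), on which a value near 4 means almost no signal, and differences are rosiglitazone minus control on that scale with the standard error (SE) from limma, n = 2 arrays per group. Because of the added 16 the differences of dim probe sets are understated. Of 22215 probe sets other than controls, 13338 passed the filter on low values and were tested, and for the gene lists the probe set of highest mean stood for each of 8030 genes. A probe set was called when its Benjamini-Hochberg adjusted p, taken over all tested, was under 0.05. The median deposited signal was 45.8 and 36.2 in the control arrays and 46.4 and 54.3 in the rosiglitazone arrays, so the treated arrays were the brighter ones. The 3' to 5' signal ratio lay between 0.83 and 1.05 for GAPDH and between 0.94 and 1.39 for ACTB over the 8 arrays. Over the tested probe sets the 2 control arrays correlated at 0.975 and the 2 rosiglitazone arrays at 0.976. Control against rosiglitazone arrays gave 0.964 to 0.978, so duplicates were not always the most alike.

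The epithelial label was held against marker genes. Of 9 epithelial and lung markers on the array 7 passed the filter (KRT7, KRT8, KRT18, KRT19, CDH1, MUC1 and SFTPB), while EPCAM and the lung lineage factor NKX2-1 did not. Of 7 fat cell markers only CIDEC and CFD passed, and ADIPOQ, LEP, PLIN1, LPL and FABP4 were below it in these arrays. Of 8 fibroblast markers 3 passed, of 7 leukocyte markers 1, and of 6 endothelial markers 0. The summed signal of the fat cell markers was 202 and 139 in control and 209 and 256 with rosiglitazone, and that of the fibroblast markers was 299 and 269 against 354 and 435. Both sums rank the arrays in the same order as their median signal. After normalization CIDEC, DCN and THY1 were still higher in both treated arrays, while CFD and COL1A1 overlapped between the groups. The part of these markers in the results was not tested.

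In all 48 probe sets were called, 0.36% of those tested, of which 36 rose (0.27%) and 12 fell (0.09%). They read 29 named genes that rose and 11 that fell, and 4 of them carry no single gene symbol. The suffix x_at, which marks probes that may also read other transcripts, is carried by 12 of the 48. The median called rise was 0.98 and the median called fall -0.98, and 17 rises and 6 falls exceeded 1, a doubling. Before adjustment 1384 probe sets had a p under 0.05, 747 higher and 637 lower, where 666.9 would be under that level with no difference anywhere. Both treated arrays lay beyond both control arrays in every one of the 48, which selection by a small p makes likely. Among all genes tested 17.8% lay above in this sense and 25% below. Of the 8030 genes tested 3540 (44.1%) were higher and 4490 lower, and 0.299% were called higher and 0.137% called lower. These shares are the background for the gene lists below.

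**Figure D1:**
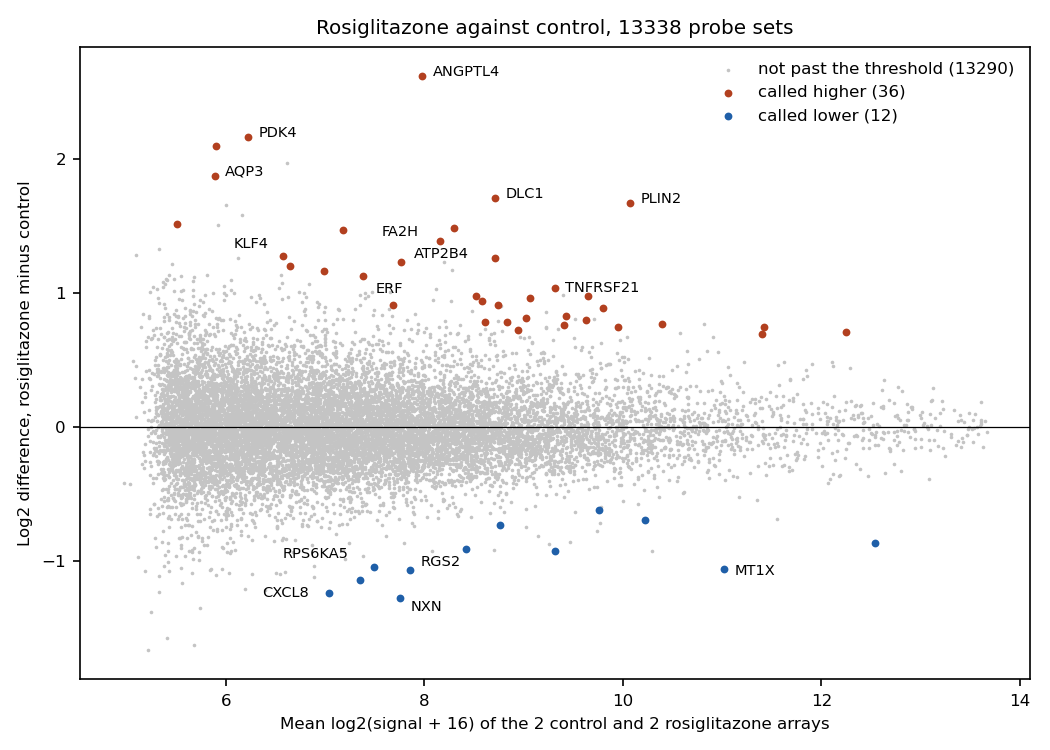
Each point is 1 of 13338 probe sets, with its mean log2(signal + 16) over the 2 control and 2 rosiglitazone arrays on the x axis and the log2 difference, rosiglitazone minus control, on the y axis. The 36 called rises are red and the 12 called falls blue. ANGPTL4 stands highest at 2.62, and NXN, at -1.28, is the lowest called fall.

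The number of calls rested on single arrays, on the scaling and on the filter, and was 6 with no filter on low values. The number was also smaller without control 1, control 2 or rosiglitazone 1. It was smaller without carboplatin 1 or carboplatin 2 too, arrays that entered only through the shared normalization, filter and spread. Without rosiglitazone 2 only the probe sets of ANGPTL4, DLC1 and PLIN2 stayed called. Those 3 were called under every one of 18 other settings tried, while each of the other 45 calls was lost in at least the setting without rosiglitazone 2. None of the 48 differences changed sign under any of the 18. When array brightness entered the model as a covariate, an alternative chosen after seeing the data, 19 probe sets were called and 11 of these were among the 48.

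Rises included genes that handle lipoprotein lipid and stored fat, ANGPTL4 and PLIN2. ANGPTL4 encodes a secreted protein that inactivates lipoprotein lipase and is a textbook PPAR target. It read 6.48 and 6.87 in the control arrays and 9.24 and 9.34 in the rosiglitazone arrays. The 2 groups stood far apart, the difference being 2.62 ± 0.23 (SE; 6.14-fold; adjusted p = 0.00081). PLIN2, the coat protein of lipid droplets in cells that are not adipocytes, read 9.21 and 9.28 in control and 10.90 and 10.92 with the drug. Its treated arrays nearly coincided, and it rose by 1.67 ± 0.12 (3.18-fold; adjusted p = 0.00025); a second PLIN2 probe set was 0.68 higher and not called.

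Most tested genes of a list for lipoprotein and fatty acid uptake were higher. The list also holds genes of other functions, such as the exporters ABCA1 and ABCG1 and the nuclear receptor NR1H3. Of its 23 genes on the array 13 were tested, 10 of them higher and 3 lower. The 3 lower were LIPA (-0.22) and the fatty acid transport genes SLC27A2 (-0.21) and SLC27A5 (-0.35). ANGPTL4 was the 1 called (background: 0.299% of genes called higher). Their median difference was 0.43, where the median over all genes tested was -0.03. APOC1, an apolipoprotein, read 7.34 and 8.04 in control against 9.04 and 8.68 with the drug and came near the threshold (1.17 ± 0.23; adjusted p = 0.063). The fatty acid carrier FABP5 (0.44 ± 0.14; adjusted p = 0.30) and the lipoprotein receptor VLDLR (0.47 ± 0.17; adjusted p = 0.37) were not called. Both were higher and separate between the groups, as were 17.8% of all genes tested. Of 15 tested genes of droplets and triglyceride storage 9 were higher and 6 lower, and the median was 0.10. PLIN2 alone was called (background: 0.299% of genes called higher).

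In the fat-burning pathways PDK4 and ECH1 rose and several more genes were higher without passing. PDK4 encodes the kinase that switches off pyruvate dehydrogenase and so spares glucose when fat is burned. It read 5.14 and 5.15 in control, below the filter's level of 5.38, and 7.28 and 7.34 with rosiglitazone, so that it was tested only because the arrays with rosiglitazone were high. The difference was 2.16 ± 0.31 (adjusted p = 0.024), or 1.31 when 64 instead of 16 was added to the signals, and the call was lost without the filter (adjusted p = 0.12). ECH1, a dienoyl-CoA isomerase of fatty acid oxidation, read 9.16 and 8.90 against 9.87 and 9.71 and rose by 0.76 ± 0.13 (adjusted p = 0.041), a call kept in only 4 of the 18 other settings.

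Of 22 tested genes for acyl-CoA activation and mitochondrial fatty acid oxidation 14 were higher and 8 lower, 0 were called at an adjusted p under 0.05, and the median was 0.18. Those of smallest p were CPT1A, the gatekeeper of mitochondrial fatty acid entry (0.57 ± 0.13; adjusted p = 0.15), the electron carrier gene ETFA (0.63 ± 0.17), the thiolase gene ACAA2 (0.69 ± 0.20) and, in the other direction, the uncoupling protein gene UCP2 (-0.48 ± 0.14). ACADVL (0.43) and the carnitine carrier gene SLC25A20 (0.55), both at an adjusted p of 0.30, were higher and separate between the groups. So were 17.8% of all genes tested. Among 23 peroxisomal genes 10 were higher and 13 lower, with ECH1 as the call (background: 0.299% of genes called higher). CAT, which encodes catalase, was at 0.67 ± 0.15 (adjusted p = 0.13). Among 20 genes of ketone body and pyruvate metabolism 8 were higher and 12 lower, and PDK4 was the 1 called (background: 0.299% of genes called higher).

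Genes that make lipid were mostly higher but gave no firm call. SCD, the desaturase that makes monounsaturated fatty acids, was called on 1 of its 4 probe sets, which read 4.92 and 4.79 in control and 7.37 and 6.53 with the drug (2.09 ± 0.32; adjusted p = 0.026), or 1.17 higher with 64 added to the signals. Its control arrays lay below the filter's level, the call was lost without the filter (adjusted p = 0.14), and the probe set carries the suffix x_at, which marks probes that may also read other transcripts. The other 3 were 0.37, 0.64 and 1.97 higher and not called, and the brightest of them, which stands for the gene in the lists, was the one at 0.37. Of 16 tested genes of fatty acid synthesis 12 were higher and 4 lower (median 0.15), led by the citrate carrier gene SLC25A1 (0.73 ± 0.14; adjusted p = 0.065) and the elongase gene ELOVL6 (0.69 ± 0.15; adjusted p = 0.11), with the elongation enzyme gene TECR lower (-0.71 ± 0.17). Of 18 genes of sterol synthesis 14 were higher and 4 lower (median 0.16), with SREBF2, the transcription factor of the pathway, at 0.88 ± 0.21 (adjusted p = 0.16). In both lists 0 genes were called by limma.

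**Figure D2:**
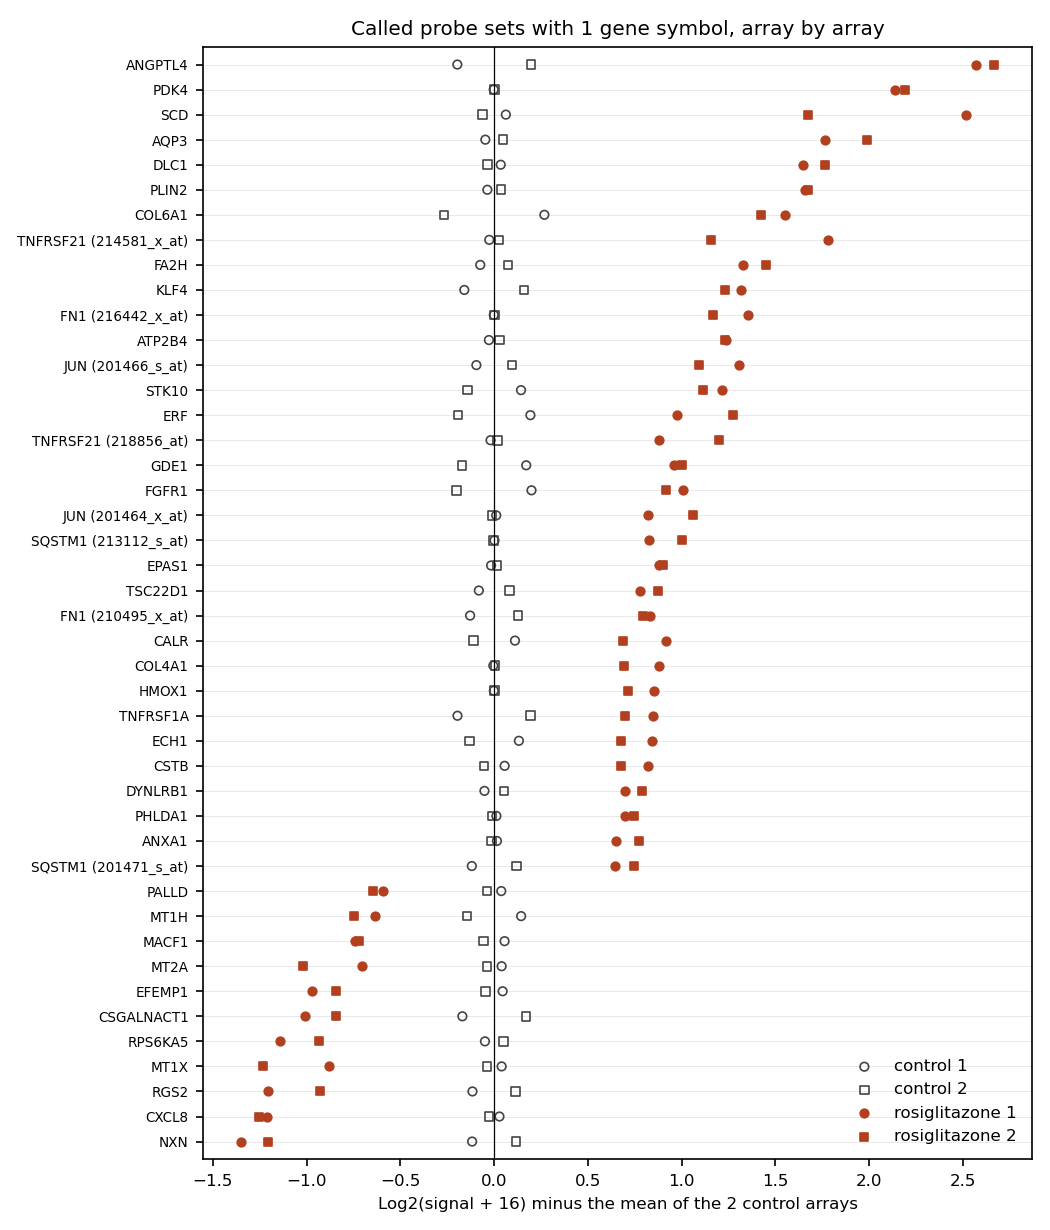
Each row is a called probe set with 1 gene symbol, and the x axis is its log2(signal + 16) in each of the 2 control (open) and 2 rosiglitazone (filled) arrays minus the mean of the control arrays; rows are ordered by their difference. In every row both filled points lie on one side of both open points, which selection by a small p makes likely. ANGPTL4 (2.62) is at the top and NXN (-1.28) at the bottom.

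A list of reference PPARγ targets and fat cell genes held 20 genes on the array, 12 of them above the filter. Of these 8 were higher and 4 lower, with a median of 0.17, and 2 were called higher (background: 0.299% of genes). They were TSC22D1 (0.83 ± 0.14; adjusted p = 0.036), a leucine zipper protein gene first known as induced by TGF-β, and HMOX1, described below among the stress genes. NNMT, a methyltransferase that consumes nicotinamide, was lower in both treated arrays (9.45 and 9.94 against 8.76 and 8.89; -0.87 ± 0.17; adjusted p = 0.065). CEBPB, a transcription factor of early fat cell formation, was 0.48 ± 0.11 higher (adjusted p = 0.14). The receptor itself did not separate: PPARG read 8.30 and 8.16 in control and 7.90 and 8.16 with the drug (-0.20 ± 0.15; adjusted p = 0.69), and its small difference turned to 0.04 with the deposited scaling. Of 20 tested receptors and coregulators 9 were higher, 11 lower and 0 called, and NCOA6, a coactivator, had the smallest p (-0.41 ± 0.15).

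Further rises concerned membrane transport and membrane lipid. AQP3, a channel for water and glycerol, read 4.91 and 5.0 in control, below the filter's level of 5.38, and 6.72 and 6.94 with rosiglitazone, and it too passed the filter through the arrays that received the drug. The difference was 1.87 ± 0.21 (adjusted p = 0.0061), or 1.04 when 64 was added to the signals, and the call was lost without the filter (adjusted p = 0.059) and without rosiglitazone 2; its other tested probe set was 0.69 higher. ATP2B4, a calcium pump of the plasma membrane, read 7.12 and 7.18 against 8.39 and 8.38 and rose by 1.23 ± 0.14 (adjusted p = 0.0065). The other 8 tested genes for water, ion and calcium transport were not called, and over all 10 the median was 0.01.

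FA2H, which adds a hydroxyl group to the fatty acid of sphingolipids, was among the most stable calls. It read 7.39 and 7.54 in control and 8.79 and 8.92 with the drug, with no overlap, and rose by 1.39 ± 0.14 (2.62-fold; adjusted p = 0.0026). It stayed called in 17 of 18 other settings and missed the threshold without rosiglitazone 2 (adjusted p = 0.054). Among the other 18 sphingolipid enzymes tested 0 were called, and over all 19 there were 7 higher and 12 lower, with a median of -0.06. GDE1, a glycerophosphodiester phosphodiesterase gene, rose by 0.98 ± 0.15 (adjusted p = 0.028).

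Of the stress and protein quality genes HMOX1, SQSTM1, CSTB and CALR passed. HMOX1, which encodes the heme-degrading enzyme heme oxygenase, read 8.22 in both control arrays and 9.08 and 8.93 with rosiglitazone (0.78 ± 0.14; adjusted p = 0.042). Its call was kept in 5 of 18 other settings. SQSTM1, the p62 adaptor that delivers cargo to autophagy, rose on both of its probe sets, by 0.91 ± 0.13 and 0.69 ± 0.10. CSTB, an inhibitor of lysosomal cathepsins, read 11.10 and 10.99 against 11.87 and 11.72 and rose by 0.75 ± 0.10 (adjusted p = 0.020). CALR, a calcium-binding chaperone of the endoplasmic reticulum, was called on 1 probe set (0.80), while its others stood at 0.18 and -0.02. The list of targets of NRF2, the factor of the oxidative stress response, also held NFE2L2, which encodes NRF2, and its regulator KEAP1. Of its 27 tested genes 22 were higher and 5 lower, with a median of 0.10. HMOX1 was the 1 called (background: 0.299% of genes called higher), and AKR1C3, an aldo-keto reductase with close paralogs, was next (0.46 ± 0.09; adjusted p = 0.063). Of 30 genes of the ATF4 and unfolded protein responses 15 were higher, 15 lower and 0 called.

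Several transcription factors rose. KLF4, a zinc finger factor of epithelial differentiation, read 5.78 and 6.10 in control and 7.26 and 7.17 with the drug and rose by 1.27 ± 0.20 (adjusted p = 0.028), or by 0.84 with 64 added to the signals. ERF, a repressor of the ETS family, read 7.01 and 6.62 against 7.80 and 8.09 (1.12 ± 0.18; adjusted p = 0.028). EPAS1, which encodes the hypoxia-inducible factor HIF-2α, read 9.33 and 9.37 against 10.23 and 10.25 (0.89 ± 0.16; adjusted p = 0.042). KLF10 missed the threshold narrowly (7.66 and 7.51 against 8.64 and 8.99; 1.23 ± 0.23; adjusted p = 0.052), and ETV4, an activating ETS factor, was lower without passing (-1.09 ± 0.22; adjusted p = 0.065). Of 21 tested Krüppel-like and ETS factors 11 were higher and 10 lower.

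JUN, a subunit of the AP-1 factor, split by probe set. It was called on 2 of 4, one reading 8.12 and 8.10 in control and 8.93 and 9.17 with rosiglitazone (0.94 ± 0.16; adjusted p = 0.040) and the other rising by 1.20 ± 0.20, whereas the remaining pair differed by -0.20 and -0.08. FGFR1, a fibroblast growth factor receptor, and CALR showed the same kind of disagreement: FGFR1 was called on 1 probe set (0.96 ± 0.17), while 2 of its other 4 were higher and 2 lower. Among 19 tested immediate early genes, of which JUN is one, 6 were higher and 13 lower, and the median was -0.15. PHLDA1, which belongs to the genes that follow growth factor signals, rose by 0.72 ± 0.13 with all 5 of its probe sets higher. Its call was kept in 5 of 18 other settings.

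DLC1, known as a tumour suppressor, gave one of the cleanest differences. It read 7.89 and 7.82 in control and 9.50 and 9.62 with rosiglitazone, and the 2 groups were far apart. The rise was 1.70 ± 0.13 (3.26-fold; adjusted p = 0.0003). STK10, a kinase of the cell cortex, rose on 1 probe set (6.55 and 6.26 against 7.62 and 7.52; 1.17 ± 0.18; adjusted p = 0.026), its other being 0.58 higher.

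TNFRSF21 and TNFRSF1A, both of the tumour necrosis factor receptor family, rose. TNFRSF21, also known as death receptor DR6, read 8.78 and 8.81 in control and 9.68 and 9.99 with the drug on its brighter probe set (1.04 ± 0.14; adjusted p = 0.018), and its second was called as well (1.47 ± 0.24). TNFRSF1A, the main receptor of tumour necrosis factor, read 9.81 and 10.20 against 10.86 and 10.70 (0.77 ± 0.13; adjusted p = 0.041), and this call was kept in 4 of 18 other settings. The 28 tested genes of death receptors and apoptosis split into 15 higher and 13 lower, with a median of 0.05. ANXA1, an anti-inflammatory phospholipid-binding protein, rose by 0.71 ± 0.11 (11.90 and 11.88 against 12.54 and 12.66; adjusted p = 0.030). DYNLRB1, a dynein light chain gene, rose by 0.74 ± 0.12 on 1 of 2 probe sets, the other being 0.19 higher.

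Matrix genes were called in both directions. COL6A1, a chain of collagen VI, was called on 1 probe set (7.83 and 7.29 against 9.11 and 8.98; 1.49 ± 0.18; adjusted p = 0.0069), all 5 tested were higher, and the brightest was at 0.80 (adjusted p = 0.065). FN1, fibronectin, had 5 of 5 probe sets higher and was called on 2, at 1.26 ± 0.20 and 0.81 ± 0.14. COL4A1, a chain of basement membrane collagen IV, rose by 0.79 ± 0.14 (adjusted p = 0.042), a call kept in 5 of 18 other settings. In contrast EFEMP1, the glycoprotein fibulin-3, read 8.92 and 8.83 in control and 7.90 and 8.03 with rosiglitazone and fell by 0.91 ± 0.16 (adjusted p = 0.041). CSGALNACT1, which starts chondroitin sulfate chains, read 9.61 and 9.94 against 8.77 and 8.93 and fell by 0.93 ± 0.14 (adjusted p = 0.026). Of 42 matrix and proteoglycan genes tested 21 were higher and 21 lower, with a median of 0.00. In each direction 2 were called (background: 0.299% of genes called higher and 0.137% lower).

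PALLD, the actin scaffold palladin, fell by 0.62 ± 0.11 (10.11 and 10.03 against 9.47 and 9.42; adjusted p = 0.041), with all 3 probe sets lower, and stayed called in 3 of 18 other settings. MACF1, which links actin to microtubules, fell by 0.73 ± 0.12 (9.18 and 9.07 against 8.39 and 8.41; adjusted p = 0.041), with 5 of 5 probe sets lower, and stayed called in 5.

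Of the 8 metallothionein genes tested 3 fell, and the other 5 were lower without passing. These short, cysteine-rich proteins hold zinc and copper ions, and the genes of the 3 called members lie on chromosome 16 and are switched on by metals through the factor MTF1 and its metal response elements. The stretches before the start sites of the 3 called genes are shown because these elements are what the family's promoters are known for. They are from RefSeq on GRCh38.p14, plus strand, 5′ to 3′, each covering the 200 bases before the start, at chr16:56682270-56682469 for MT1X, chr16:56608384-56608583 for MT2A and chr16:56669614-56669813 for MT1H. Capitals mark the element's core on either strand, searched as TGCACNC and TGCGCNC and their reverse complements.
MT1X: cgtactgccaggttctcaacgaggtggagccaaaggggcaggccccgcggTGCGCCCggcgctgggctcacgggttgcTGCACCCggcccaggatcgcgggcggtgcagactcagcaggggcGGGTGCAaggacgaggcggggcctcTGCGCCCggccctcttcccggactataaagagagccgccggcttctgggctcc
MT2A: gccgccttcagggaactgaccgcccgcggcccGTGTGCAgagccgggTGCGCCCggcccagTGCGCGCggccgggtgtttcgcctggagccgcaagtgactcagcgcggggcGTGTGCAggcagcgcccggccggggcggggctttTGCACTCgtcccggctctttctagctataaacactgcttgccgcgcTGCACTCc
MT1H: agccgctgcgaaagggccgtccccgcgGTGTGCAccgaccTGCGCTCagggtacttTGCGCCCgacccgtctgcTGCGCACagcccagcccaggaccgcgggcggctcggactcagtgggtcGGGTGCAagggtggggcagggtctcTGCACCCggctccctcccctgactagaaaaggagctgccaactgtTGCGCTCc
The window holds 4 cores for MT1X, 6 for MT2A and 7 for MT1H. In the 250 bases before the start they had 4, 7 and 8, where 0.37% of 35116 RefSeq promoters had at least 4 and 24.8% had at least 1. A match is a description of these letters only.

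MT1X read 11.59 and 11.51 in the control arrays and 10.67 and 10.32 in the rosiglitazone arrays and fell by 1.06 ± 0.16 (2.08-fold lower; adjusted p = 0.026). MT2A read 13.02 and 12.94 against 12.27 and 11.96 and fell by 0.86 ± 0.12 (adjusted p = 0.020). MT1H read 10.71 and 10.42 against 9.93 and 9.82 and fell by 0.69 ± 0.12 (adjusted p = 0.044). Rosiglitazone 2 was the lower of the treated arrays in all 3, and in none did the groups overlap.

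The other members leaned the same way without passing. MT1F was lower by 0.81 ± 0.17 (adjusted p = 0.098) and MT1G by 0.77 ± 0.15 (adjusted p = 0.064), MT1HL1 differed by -0.92 ± 0.28, MT1E by -0.41 ± 0.19 and the dim MT3 by -0.31 ± 0.34. A second MT1E probe set overlapped between the groups (7.56 and 8.2 against 7.86 and 7.19). All 8 tested genes had both treated arrays below both control arrays, which held for 25% of all genes tested, while 17.8% lay above in the same sense; 3 of the 8 were called lower, against 0.137% of genes, and the median was -0.79. The family was picked because earlier results of these arrays pointed to it, so the count is a description. Every called metallothionein probe set has the suffix x_at, and the paralogs are so alike that one may read another's RNA. A second probe set of MT1G, at the floor of the scale, was not tested and read 4.50 and 4.12 against 4.90 and 5.21, the opposite way, and 2 further members, MT1M and MT4, were below the filter. With brightness as a covariate MT3 turned to 0.11 and the second probe set of MT1E to 0.01. All 3 calls were lost with the deposited scaling, with brightness as a covariate (adjusted p between 0.056 and 0.072), without the filter, without the trend, and without control 1, control 2 or rosiglitazone 2. MT2A was called in 11 of 18 other settings, MT1X in 10 and MT1H in 3.

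**Figure D3:**
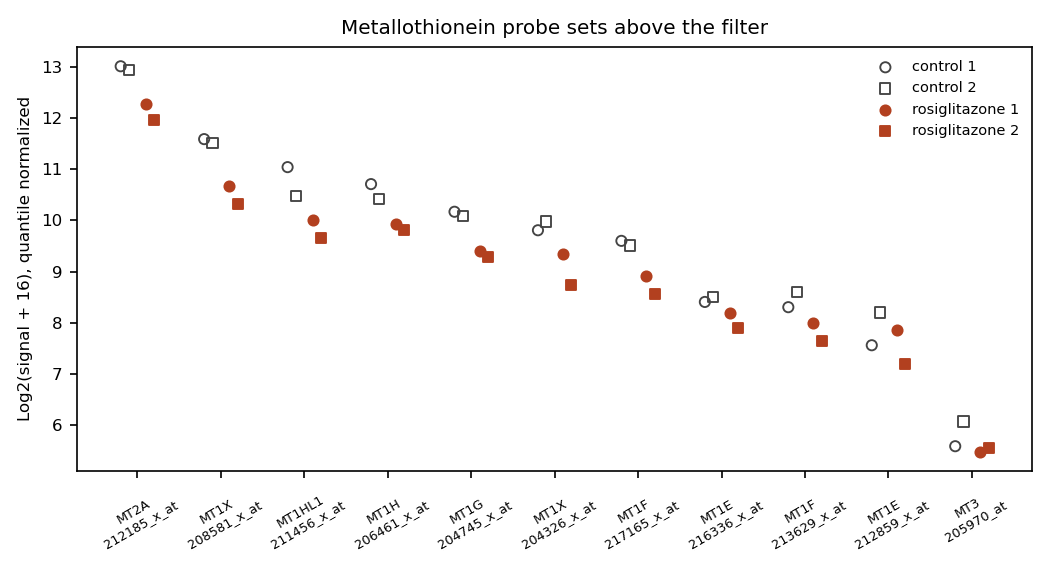
Levels of the metallothionein probe sets above the filter, quantile normalized log2(signal + 16) on the y axis, with 1 point for each of the 2 control (open) and 2 rosiglitazone (filled) arrays. MT1X, MT2A and MT1H are the called members, and MT2A, for example, goes from 13.02 and 12.94 in control to 12.27 and 11.96 with the drug.

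Zinc transporters and sensors gave no call. Of 11 tested genes of zinc handling 5 were higher, 6 lower and 0 called at an adjusted p under 0.05, with a median of -0.01. MTF1, the factor that reads zinc and switches metallothioneins on, differed by -0.13, and the exporter SLC30A1, also under its control, by 0.16. The redox gene NXN, which encodes nucleoredoxin of the thioredoxin family, showed the largest called fall. It read 8.28 and 8.51 in control and 7.05 and 7.19 with rosiglitazone and fell by 1.28 ± 0.15 (2.42-fold lower; adjusted p = 0.0074).

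Among inflammatory genes CXCL8, the neutrophil-attracting chemokine interleukin-8, read 7.69 and 7.63 in control and 6.45 and 6.40 with the drug. It fell by 1.23 ± 0.22 (2.35-fold lower; adjusted p = 0.049), on 1 of 2 probe sets, the other being at -0.18. The call was kept in 5 of 18 other settings and was lost, among others, with 1 added to the signals. CCL2, a monocyte chemokine, was lower without passing (7.59 and 7.76 against 6.81 and 6.81; -0.87 ± 0.19; adjusted p = 0.098), as were CXCL1 (-0.87 ± 0.26) and CXCL3 (-0.65 ± 0.25). ICAM1, an adhesion molecule driven by the same NF-κB factor, stood on the other side (0.99 ± 0.24; adjusted p = 0.16). Of 24 tested NF-κB targets and chemokines 7 were higher (29.2%, where 44.1% of all genes tested were) and 17 lower. CXCL8 was the 1 called (background: 0.137% of genes called lower), and the median was -0.14.

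Signalling regulators were also among the falls. RGS2, which shortens signals of Gq-coupled receptors, read 8.28 and 8.51 in control and 7.19 and 7.47 with rosiglitazone and fell by 1.07 ± 0.17 (adjusted p = 0.028). RGS3 was next of its family (-0.59 ± 0.17; adjusted p = 0.22), and of 10 tested members 4 were higher and 6 lower. RPS6KA5, a kinase that phosphorylates histones and CREB after mitogen or stress signals, read 7.96 and 8.06 against 6.87 and 7.08 and fell by 1.04 ± 0.18 (adjusted p = 0.044).

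Groups tied to growth and differentiation gave no call at an adjusted p under 0.05. Of 58 cell cycle genes 18 were higher (31.0%, where 44.1% of all genes tested were) and 40 lower, with a median of -0.12. In 26 of them (44.8%) both treated arrays lay below both controls, where 25% of all genes did so. Each difference was small: CCND3, a D-type cyclin, was at -0.43 ± 0.13 (adjusted p = 0.25) and PTTG1, securin, at -0.39 ± 0.13. Fewer dividing cells and less RNA of these genes per cell cannot be told apart in a bulk sample. Of 23 p53 targets 9 were higher and 14 lower, with GDF15, a stress cytokine, at -0.53 ± 0.16, and of 11 genes of the EGF receptor family and its ligands 3 were higher and 8 lower (median -0.25), TGFA being highest at 0.90 ± 0.26.

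Of 17 epithelial differentiation genes 10 were higher and 7 lower. FOXA2, a lineage factor of lung and liver, read 7.62 and 7.29 in control and 6.15 and 6.52 with rosiglitazone (-1.11 ± 0.22; adjusted p = 0.065), and AGR2, a secretory cell gene, read 7.04 and 7.07 against 5.57 and 6.36 (-1.09 ± 0.26). KRT7 was 0.48 ± 0.13 higher and KRT18 stood at -0.27 ± 0.09, so the keratins of simple epithelium did not share a direction, and none of these passed.

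**Figure D4:**
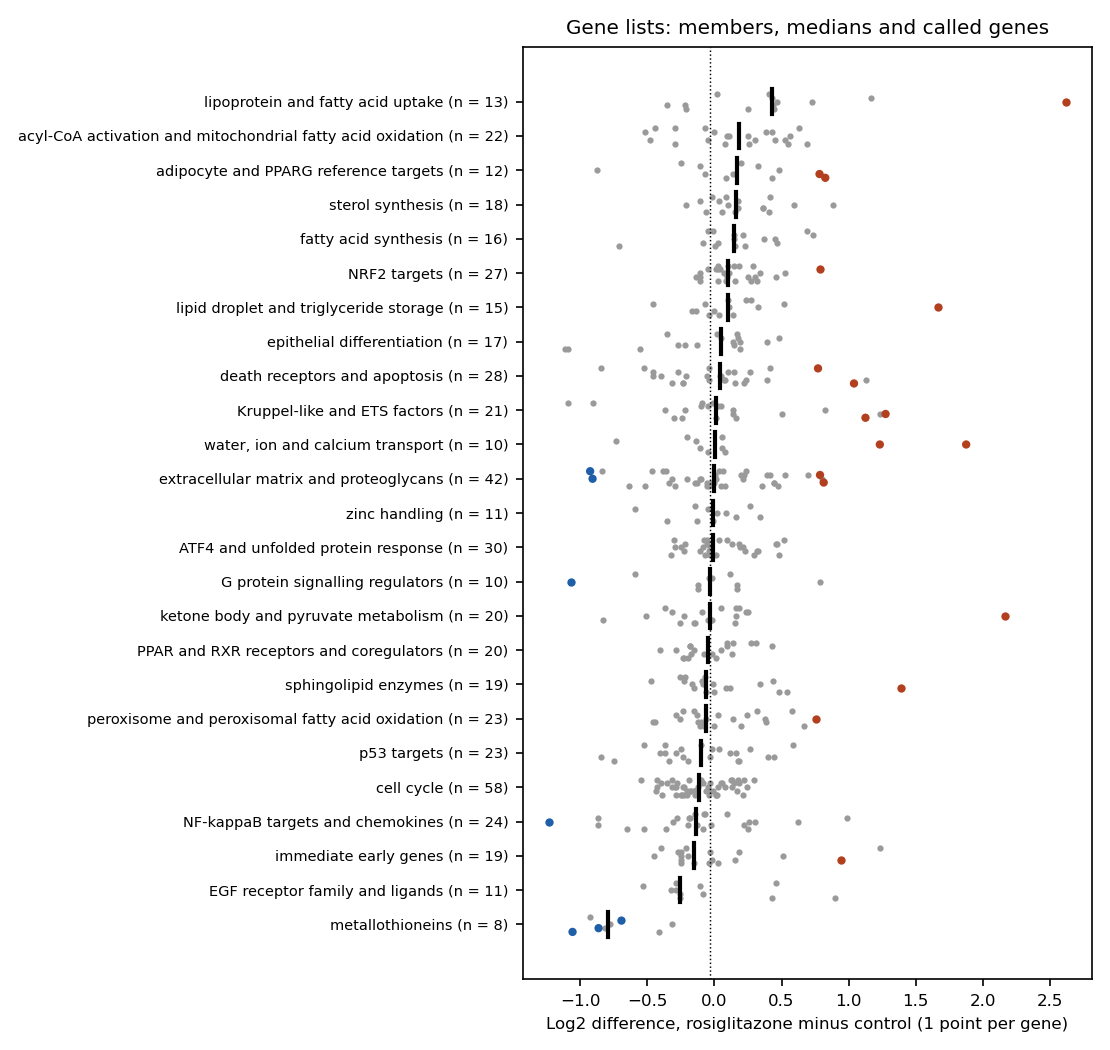
Log2 differences, rosiglitazone minus control, of the tested genes in each list described, 1 point per gene represented by its brightest probe set, with called rises in red, called falls in blue, a black bar at the list median and a dotted line at the median of all genes tested (-0.03). The metallothioneins, at a median of -0.79, are the list whose points all lie below 0, and the uptake list has the highest median at 0.43.

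The binding motif of the receptor was looked for before the start sites of the genes that rose. A pair of AGGTCA hexamers in direct repeat, 1 base apart, with up to 2 mismatches in all and on either strand, was found in the 250 bases before the start in 2.57% of 35116 RefSeq promoters. Of the 29 risen genes 21 had a promoter in that table, and 0 of these held such a match. This says only that these letters are not in those windows.

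The 2 arrays with carboplatin plus rosiglitazone and the 2 with carboplatin alone share no array with the comparison above. The median deposited signal was 37.2 and 52.2 in the combination arrays and 37.6 and 44.6 in the carboplatin arrays. Their difference gave the drug a further reading in other arrays, but normalization, filter and estimate of the spread were shared with the first comparison. A probe set of small spread is thus more easily called in both, and calls in this second reading are not independent of the first. There 21 probe sets were called, 0.157% of those tested, 19 higher and 2 lower, and between 4 and 7 when any one of these 4 arrays was left out (8 and 15 without rosiglitazone 1 and without rosiglitazone 2). Of the 36 called rises 35 were higher there too and 10 were called, and of the 12 falls 11 were lower and 2 were called; over all probe sets tested 49.3% were higher there. The median of the risen probe sets was 0.79 there and that of the fallen ones -0.68. The differences were smaller there in 29 of 36 rises and 9 of 12 falls, but they had been chosen for their size in the first comparison. The test of the difference between the 2 backgrounds called 0 probe sets by limma (796 at an unadjusted p under 0.05, 12 of them among the 48).

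Among the probe sets called in both were those of the lipid genes. ANGPTL4 read 6.18 and 6.36 in the carboplatin arrays against 9.65 and 8.91 once rosiglitazone was added, a rise of 3.01. PLIN2 rose by 1.71 and DLC1 by 1.60 there, and FA2H by 1.55. AQP3 (1.42; adjusted p = 0.030), KLF4 (1.30), ATP2B4 (1.10; adjusted p = 0.020), the brighter TNFRSF21 probe set (0.99), HMOX1 (0.93) and ECH1 (0.83; adjusted p = 0.035) were the other rises called in both, and EFEMP1 (-1.08) and CSGALNACT1 (-1.03) the falls. AQP3 passed the filter only through the arrays with rosiglitazone, those of the combination among them. Whether its call there holds without the filter is not shown, so that call is not independent of the filter. APOC1 and COL6A2, short of the threshold with rosiglitazone alone (1.17 and 0.70), were called there at 1.53 and 1.06.

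Others were less alike in size, with no difference between the backgrounds called. PDK4 was at 1.33 there (adjusted p = 0.22) and the called SCD probe set at 0.42, where carboplatin alone read 5.74 and 6.54. NXN stood at -0.48 and MACF1 at -0.22. Of the 27 genes tested in the NRF2 list 13 were higher there, with a median of -0.01. The metallothioneins had a median of -0.70 there, with MT1X at -0.93, MT1H at -0.73 and MT2A at -0.52, and none of these 3 was called. CCL2 (-1.03), NNMT (-0.73) and AGR2 (-0.95) kept the side they had with rosiglitazone alone, while ETV4 (0.06) and ICAM1 (-0.11) were near 0.

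**Figure D5:**
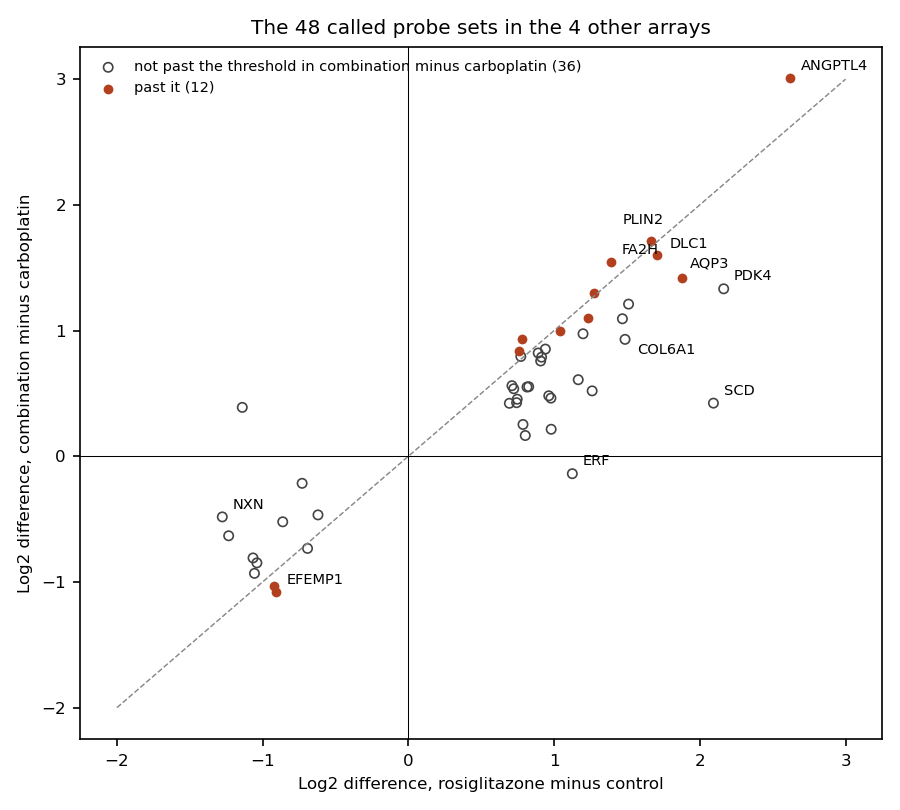
Each point is 1 of the 48 probe sets called in rosiglitazone minus control (x axis, log2 difference), against its log2 difference in combination minus carboplatin (y axis); filled points are the 12 called in both, and the dashed line marks equal values. Most points lie on the same side of 0 on both axes, and ERF and the fallen probe set without a gene symbol lie on opposite sides.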

How the data were processed

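The deposited values are intensity values, 1 linear signal per probe set and array, from 0.0322 to 14941; how the authors' software corrected and scaled them is not given in the sources used. Of 22283 probe sets, 68 were controls and were left out. Signals were taken as log2(signal + 16) and quantile normalized over 8 arrays (limma 3.58.1, R 4.3.3), and probe sets with a mean below the 40th percentile were not tested. The annotation gives 19071 probe sets 1 gene symbol, 1043 several and 2169 none, and only the first were named. Of these 19059 matched the RefSeq gene table of GRCh38.p14 by Entrez identifier, and 0 symbols changed. A limma model (lmFit, then eBayes with trend) was fitted to all 4 groups, with 4 residual and 7.10 prior degrees of freedom, tests two-sided and adjusted p over 13338 probe sets by Benjamini-Hochberg. An exact permutation test of 2 against 2 arrays cannot go below p = 0.333 and was not used.

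The rosiglitazone comparison, its gene lists and the genes followed were chosen with earlier results of these data known. Named were every called probe set with 1 symbol, every metallothionein, and up to 6 further members of smallest p from each of 26 lists, of which 1 is not reported here; MTF1, outside this rule, was named for its role. The 2 arrays of a group shared 0 identical values. The procedure was run on simulated data, independent normal values with the spread estimated here and no array effects. Such data cannot show how brightness or single arrays moved the calls. Alternatives were the deposited scaling, median scaling, a pseudocount of 1 or 64, a filter at the 60th percentile or none, no trend, a fit of the compared groups alone, a replicate block, leaving out each array, and brightness as a covariate, the last chosen after seeing the data. A group left with a lone array borrows its spread from the remaining groups. Promoter sequences are RefSeq's, and 3 of the 8 tested metallothioneins had one in the table used.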

Additional observations from a re-analysis of the deposited data

Results flagged for a closer look

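The following 2 called probe sets moved in opposite directions in both arrays of each background. ERF was higher with rosiglitazone alone and not with carboplatin, where all 4 arrays read between 8.21 and 8.41; its log2 difference with carboplatin minus that without was -1.26 (adjusted p = 0.82, limma). The called fall that has no gene symbol in the annotation went from 7.79 and 8.05 down to 6.82 and 6.75 when rosiglitazone was given alone, and from 7.17 and 7.19 up to 7.59 and 7.55 when it joined carboplatin, a difference of 1.53 between the backgrounds (adjusted p = 0.31). Neither difference passed the test across all probe sets.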

How the results depend on the processing

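The 48 calls in rosiglitazone against control became 24 with the deposited scaling (a shift of 0.22 in the overall median), 18 with median scaling, 6 without a filter, 6 without the trend and 19 with brightness as a covariate. Leaving out 1 array of control, rosiglitazone or carboplatin gave fewer calls, fewest without rosiglitazone 2. Leaving out 1 combination array gave about as many. Pseudocounts of 1 and 64 gave 49 and 51, and the filter at the 60th percentile gave 70. With the deposited scaling 21 rose and 3 fell. Deviations of same-numbered arrays correlated at -0.09 between control and rosiglitazone and at 0.25 between carboplatin and combination. Nothing in the labels says what a number marks, so the samples were taken to share only a number. A replicate block gave 43 calls, 36 of them among the 48, and 17 in combination against carboplatin.

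The 21 calls in combination against carboplatin became 9 with the deposited scaling, 8 with median scaling, 6 without a filter, 5 without the trend and 5 with only the groups compared, and 4 (without carboplatin 1) to 23 when 1 array was left out. The difference between the backgrounds had 0 calls, or 3 with the deposited scaling. Of 96 probe sets followed, 3 changed sign: PPARG to 0.043 with the deposited scaling, and MT3 to 0.11 and MT1E to 0.0062 with brightness as a covariate. Of the 48 calls 20 held in at least 10 of 18 settings and 5 in fewer than 5.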
